A study of Mus musculus with 2 samples.

Results

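The genes described here encode structural proteins and light chains of the sarcomere, the contractile unit of skeletal muscle. They were taken by gene symbol from a list of 34, and all 34 were found among the 32285 features of both count matrices. By role they comprised 2 giant filament proteins, 2 M-band proteins, 3 proteins that bind the thick filament, 14 proteins of the Z-disc and its periphery, 6 proteins of the thin filament, 3 essential myosin light chains, and 4 genes for regulatory myosin light chains and their kinase. The study collected single-cell RNA-seq libraries of quiescent satellite cells (QSCs) and activated satellite cells (ASCs), the stem cells of skeletal muscle, to compare gene expression before and after activation. Tibialis anterior muscle was taken from Pax7 CreERT2/+ ;Rosa26 mTmG/+ mice aged 8 weeks for both, in which an inducible Cre expressed from the Pax7 locus switches on a membrane-bound green reporter. The QSC library was sorted from uninjured muscle and the ASC library 1.5 days after an injection of cardiotoxin, a toxin that destroys fibres and spares most satellite cells. Each library was made from sorted cells pooled over several mice. There was 1 library per group, so no difference below has a replicate check, no test was made, and library and condition cannot be told apart.

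Thick filaments of myosin and thin filaments of actin slide past each other in the sarcomere. Titin (Ttn) spans from the Z-disc, where thin filaments are anchored, to the M-band, where thick filaments are linked. Tropomyosins lie along the thin filament and set, with troponin, when myosin can bind. Each myosin head carries an essential and a regulatory light chain, of which fast, slow and developmental forms exist. Satellite cells do not build sarcomeres, and the genes come on when their progeny differentiate and fuse.

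A barcode was kept when 500 or more genes were detected in it and no more than 10% of its transcripts were mitochondrial, which left 516 QSC barcodes with 1162091 unique molecular identifiers (UMIs, 1 per captured transcript) and 1468 ASC barcodes with 8895815 UMIs. They were divided by genes outside the list. Barcodes in which 10 fast-fibre genes (Tnnt3, Tnnc2, Tnni2, Ckm, Pvalb, Atp2a1, Eno3, Myh1, Myh4 and Pygm) gave 5% or more of the UMIs were called fibre barcodes, and numbered 103 in QSC and 891 in ASC. Myogenic barcodes, with at least 1 UMI of 11 satellite cell and myoblast markers, were split at 2 UMIs of Myog, the gene for the differentiation factor myogenin, into 1 Myog-high and 370 Myog-low barcodes in QSC and 150 and 285 in ASC. Non-muscle barcodes, with immune, stromal or endothelial markers, numbered 38 and 117, and 4 and 25 barcodes stayed unassigned. Most QSC barcodes thus carried the markers of the labelled cell type, whereas most ASC barcodes carried those of fibres. Fibre barcodes carried a median of 1635 UMIs in QSC and 2687 in ASC. The fibre class was sharply bounded in QSC, where 3 barcodes had a fibre-gene share from 4 to 6%, and less so in ASC, where 109 did. In QSC fibre barcodes 9 of the 11 myogenic markers were detected (Myog and Heyl at 0) and made up 0.0146% of UMIs, and in ASC fibre barcodes all 11 made up 0.0339%. Of 10 immune markers, 9 were detected in QSC fibre barcodes (Cd68 at 0), at 0.00940%, and 10 in ASC fibre barcodes, at 0.0256%. The median mitochondrial share of fibre barcodes was 0.718% in QSC and 0.171% in ASC. What part these differences had in the results was not tested. Between them the libraries shared 4 barcode sequences, and no doublets were removed.

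Upstream DNA of 4 genes is shown because these had, among genes with a reference promoter and at least 20 UMIs in the fibre barcodes of each library, the 2 lowest and the 2 highest ratios of ASC over QSC (values below). Without the barcode richest in each gene in each library, the ratio of Lmod2 was lower than that of Ttn. The sequences are the 250 bases before the RefSeq transcript start on GRCm38.p6, 5′ to 3′ on the strand of the gene. Capitals mark E-boxes (CANNTG, the site of the MyoD family, read alike on both strands) and the MEF2 box. The Myl3 window is chr9:110763428-110763677 (+), that of Ttn chr2:76982548-76982797 (-), that of Smpx chrX:157698723-157698972 (+) and that of Pdlim3 chr8:45885237-45885486 (+).
Myl3: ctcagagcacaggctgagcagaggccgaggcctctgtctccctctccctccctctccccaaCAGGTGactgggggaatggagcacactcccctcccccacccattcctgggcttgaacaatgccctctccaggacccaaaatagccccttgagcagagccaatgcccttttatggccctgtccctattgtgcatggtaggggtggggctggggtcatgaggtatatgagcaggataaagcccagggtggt
Ttn: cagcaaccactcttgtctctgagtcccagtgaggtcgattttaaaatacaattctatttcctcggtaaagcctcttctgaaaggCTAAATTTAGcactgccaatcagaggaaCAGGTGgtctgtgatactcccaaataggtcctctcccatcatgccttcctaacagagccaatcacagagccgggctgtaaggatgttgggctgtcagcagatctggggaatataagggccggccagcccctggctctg
Smpx: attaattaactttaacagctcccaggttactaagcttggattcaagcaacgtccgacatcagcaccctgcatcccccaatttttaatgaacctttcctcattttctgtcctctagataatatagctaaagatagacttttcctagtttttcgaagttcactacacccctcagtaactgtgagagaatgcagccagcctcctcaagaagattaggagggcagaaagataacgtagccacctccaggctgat
Pdlim3: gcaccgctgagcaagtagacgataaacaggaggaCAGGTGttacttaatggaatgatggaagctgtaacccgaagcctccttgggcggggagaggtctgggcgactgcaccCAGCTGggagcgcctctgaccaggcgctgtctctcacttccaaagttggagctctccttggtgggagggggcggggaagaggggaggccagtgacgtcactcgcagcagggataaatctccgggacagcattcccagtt
The E-box of Myl3 begins 189 bases before the start. That of Ttn begins 138 bases before it, and a MEF2 box lies at 166. Those of Pdlim3 begin at 216 and 139, and the Smpx window holds neither motif. Over windows of 300 bases (250 before to 50 after a start), an E-box was found in 22 of 32 windows of 26 members (68.8%) and in 72.3% of 32851 windows of other and member genes taken from the same RefSeq table. A MEF2 box was found in 3 member windows (9.38%; Ttn, Myoz2 and Xirp2) and in 0.557% of all windows. No window was at hand for Neb, Myom2, Actn3, Tcap, Myot, Myoz1, Xirp1 and Mylk2. A match of letters is a description and does not show that a factor binds there.

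Over all kept barcodes the 34 genes gave 2.78% of the UMIs of the QSC library (32249 UMIs, 95% exact interval 2.75 to 2.81) and 3.83% of those of the ASC library (340274 UMIs, 3.81 to 3.84). Here and below, intervals are exact 95% intervals that cover counting error only. Fibre barcodes made up 19.96% of the barcodes in QSC and 60.7% in ASC, so pooled levels mix the level in fibres with the share of fibres. In all barcodes 9 of the 34 genes were at least 2-fold higher in ASC, against a background of 15.9% of 13758 genes, and 3 were at least 2-fold lower, against 27.0%. The median log2 ratio of the 34 genes was 0.36 and that of all genes -0.16. When only barcodes with at most 1% mitochondrial UMIs were used, which is the limit in the study's methods, the median of the genes turned to -0.26. No median over all genes was set beside that value.

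Within fibre barcodes the 34 genes held 10.7% of the UMIs in QSC (10.6 to 10.9) and 9.21% in ASC (9.18 to 9.25). Per barcode this share ran from 5.80 to 18.4% around a median of 10.5% in QSC and from 3.88 to 15.6% around 8.82% in ASC, so the libraries overlapped widely. Here 8 genes were at least 2-fold higher in ASC (Pdlim3, Smpx, Mybph, Xirp1, Flnc, Tpm3, Myl2 and Myl10), against 17.1% of 9796 genes, and 6 were at least 2-fold lower (Tcap, Neb, Ttn, Lmod2, Cmya5 and Myl3), against 17.7%. These counts took 0.5 added to each UMI count. Among the 8, 6 had at most 2 UMIs in QSC. The median log2 ratio was -0.25 for the members and -0.05 for all genes. Scaling by trimmed means (TMM) would add 0.16 to every log2 ratio in fibre barcodes and 0.31 over all barcodes. Relative to the median gene with at least 20 UMIs in each library, 14 members lay above and 18 below, and Myl2 and Myl10, with 0 UMIs in QSC, were not placed. The interval of the ratio lay above 1 for 9 members and below 1 for 16, against 7.71% and 7.51% of all genes; it narrows with the count, and most members are abundant. In the descriptions that follow, levels are UMIs per 1000000 UMIs of the fibre barcodes of a library (CPM), without scaling for length because 3′ counting gives 1 UMI per transcript end.

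**Figure D1:**
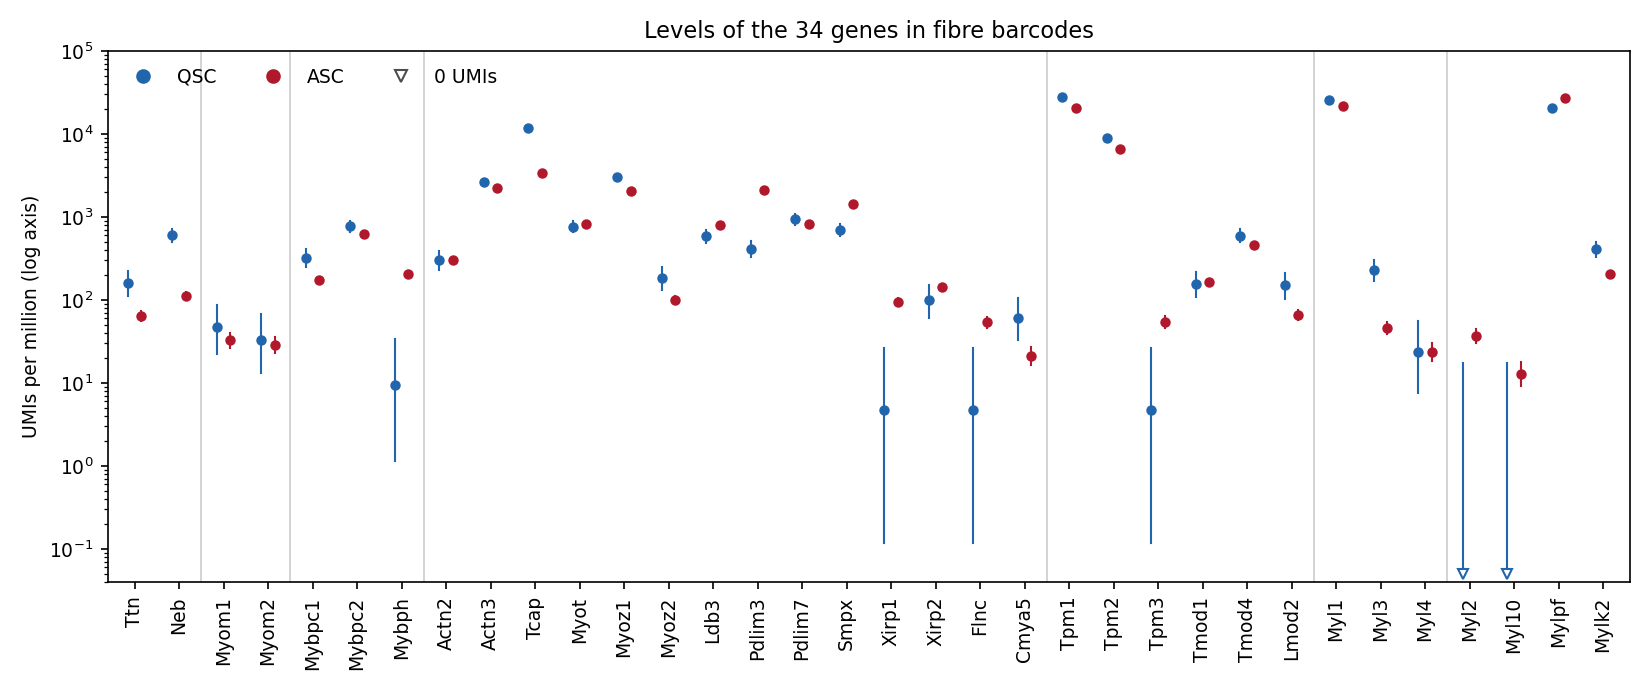
Levels of the 34 genes in the fibre barcodes of the QSC library (blue, 103 barcodes) and the ASC library (red, 891 barcodes), as UMIs per 1000000 on a log axis with exact 95% Poisson intervals, arranged by role from giant filaments to regulatory light chains. Tpm1, Myl1 and Mylpf stand highest in both libraries, at 20311 or more, and the open triangles mark Myl2 and Myl10, which had 0 UMIs in QSC.

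The giant filament genes were lower in ASC fibre barcodes. Neb (ENSMUSG00000026950, chr2:52136647-52378474 on GRCm38) encodes nebulin, the scaffold along the thin filament. It stood at 601 CPM in QSC (128 UMIs) and 111 CPM in ASC (320 UMIs), a log2 ratio of -2.43 (-2.73 to -2.12). Ttn stood at 160 CPM in QSC (34 UMIs) and 63.7 CPM in ASC (183 UMIs), a log2 ratio of -1.33 (-1.86 to -0.75). Neither interval reached equality. A single QSC barcode held 10 of the 34 Ttn UMIs. Without the richest barcode of each library the log2 ratio of Ttn was -0.87 (-1.49 to -0.19). The M-band genes Myom1 and Myom2, whose myomesin proteins cross-link thick filaments, had 10 and 7 UMIs in QSC and 94 and 83 in ASC. Their intervals, from -1.46 to 0.59 and from -1.29 to 1.17 on the log2 scale, include no difference.

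Genes for proteins that bind the thick filament went in different directions. Mybpc1, the slow form of myosin-binding protein C, stood at 319 CPM in QSC and 173 CPM in ASC (log2 ratio -0.88, -1.25 to -0.50). Mybpc2, the fast form, stood at 766 and 621 CPM (-0.30, -0.53 to -0.06). Mybph (ENSMUSG00000042451, chr1:134193448-134201232 on GRCm38), which encodes the related protein H, had 2 UMIs in QSC (9.40 CPM) and 587 in ASC (204 CPM), a log2 ratio of 4.44 (2.58 to 7.49). Without the richest barcode of each library it had 1 and 562 UMIs (5.38, 2.89 to 10.7). Mybph was thus near absent from the QSC fibre barcodes and exceeded Mybpc1 in those of ASC. After thinning every barcode to 1200 UMIs, 1.12% of 89 QSC fibre barcodes (0.0284 to 6.10) and 15.4% of 811 ASC fibre barcodes (13.0 to 18.1) had a Mybph UMI, with median depths of 1635 and 2687 UMIs before thinning. In the non-muscle barcodes of ASC, which should lack the gene, the share was 3.60% of 111 (0.99 to 8.97) at a median depth of 5158 UMIs. Mybph overlaps Adora1 on the opposite strand, and Adora1 had 0 and 3 UMIs in these barcodes.

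Of the Z-disc genes, Tcap differed most in absolute level. Tcap (ENSMUSG00000007877, chr11:98383811-98384953 on GRCm38) encodes telethonin, which caps the ends of titin at the Z-disc, and its level was 11689 CPM in QSC and 3356 CPM in ASC (log2 ratio -1.80, -1.86 to -1.74). At 1200 UMIs per barcode the median fibre barcode held 13 Tcap UMIs in QSC (range 4 to 48) and 3 in ASC (0 to 28), so the distributions were shifted but overlapped. Myoz1, the fast-fibre calsarcin that joins alpha-actinin to calcineurin, stood at 3044 and 2025 CPM (-0.59, -0.71 to -0.47). Myoz2, the slow-fibre calsarcin, stood at 183 and 99.6 CPM (-0.88, -1.37 to -0.36). The Myoz2 interval rested on 1 barcode per library: without the barcode richest in it in each, it ran from -1.14 to 0.045. Cmya5, the gene for myospryn, had 13 UMIs (61.1 CPM) and 61 UMIs (21.2 CPM), with a log2 ratio of -1.52 (-2.40 to -0.54).

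The alpha-actinins, which cross-link thin filaments at the Z-disc, differed little. Actn2 stood at 301 CPM in QSC and 302 CPM in ASC, with an interval from -0.36 to 0.39 around a log2 ratio of 0.004. Actn3, the fast-fibre form, stood at 2589 and 2234 CPM (-0.21, -0.34 to -0.08). Myot, the gene for myotilin, stood at 761 and 819 CPM (0.11, -0.12 to 0.34). Pdlim7, a PDZ and LIM domain protein also known as enigma, stood at 930 and 809 CPM (-0.20, -0.41 to 0.02). Actn3 alone of these 4 genes had an interval clear of equality.

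Other Z-disc genes were higher in ASC fibre barcodes. Pdlim3 (ENSMUSG00000031636), the gene for the actinin-associated LIM protein, stood at 413 CPM in QSC (88 UMIs) and 2121 CPM in ASC (6089 UMIs), a log2 ratio of 2.36 (2.06 to 2.68). Smpx, the gene for a small protein of the costamere named chisel, stood at 700 and 1414 CPM (1.01, 0.78 to 1.26). Ldb3, which encodes the PDZ protein ZASP or cypher, stood at 587 and 806 CPM (0.46, 0.20 to 0.73). At 1200 UMIs per barcode the median fibre barcode held 0 Pdlim3 UMIs in QSC (highest 4) and 2 in ASC (highest 14).

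The Xin repeat proteins bind actin at sites of attachment and repair, and filamin C (Flnc) is their partner. Xirp1 had 1 UMI in the QSC fibre barcodes (4.70 CPM) and 271 in ASC (94.4 CPM), a log2 ratio of 4.33 (1.84 to 9.64). Xirp2 stood at 98.7 CPM (21 UMIs) and 142 CPM (407 UMIs), and its interval, -0.11 to 1.23, includes no difference, though without its richest barcode in each library it ran from 0.059 to 1.55. Flnc had 1 UMI in QSC and 153 in ASC (53.3 CPM), a log2 ratio of 3.50 (1.004 to 8.82). All 3 genes were sparse, with UMIs in 10.1% (Xirp1, 8.12 to 12.4), 14.4% (Xirp2, 12.1 to 17.0) and 5.55% (Flnc, 4.08 to 7.35) of the 811 ASC fibre barcodes thinned to 1200 UMIs. In the non-muscle barcodes of ASC the share was 1.80% for Xirp1 and for Flnc (0.219 to 6.36). Xirp1 overlaps Cx3cr1 on the same strand, and Cx3cr1 had 0 UMIs in the fibre barcodes of either library.

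The thin filament genes included the most abundant members. Tpm1, the main fast tropomyosin, stood at 27432 CPM in QSC and 20311 CPM in ASC (log2 ratio -0.43, -0.47 to -0.39). Tpm2, the beta form, stood at 8842 and 6572 CPM with the same log2 ratio (-0.43, -0.50 to -0.36). Both ratios are near that of actin: Acta1, the skeletal alpha-actin gene and no member of the list, stood at 54954 and 40978 CPM (-0.42). Tpm3, which gives the slow-fibre tropomyosin and, by other promoters, cytoskeletal forms, had 1 UMI in QSC and 155 in ASC (54.0 CPM, log2 ratio 3.52, 1.02 to 8.84). A single ASC fibre barcode held 60 of the 155 UMIs. Without the barcode richest in Tpm3 in each library, QSC had 0 UMIs and ASC 95 (33.1 CPM), and the interval of the log2 ratio began at 0.90.

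Genes for proteins at the pointed ends of thin filaments were lower or unresolved in ASC. Lmod2, the leiomodin that lengthens thin filaments, stood at 150 CPM in QSC (32 UMIs) and 66.2 CPM in ASC (190 UMIs), a log2 ratio of -1.18 (-1.73 to -0.60). Tmod4, the skeletal tropomodulin that caps them, stood at 592 and 460 CPM (-0.36, -0.63 to -0.09). Tmod1 stood at 155 and 163 CPM, and its interval ran from -0.44 to 0.63. Lmod3, a leiomodin outside the list, stood at 179 and 202 CPM (-0.30 to 0.69).

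The fast light chains dominated and diverged slightly. Mylpf, the fast regulatory light chain, stood at 20432 CPM in QSC and 27340 CPM in ASC (log2 ratio 0.42, 0.38 to 0.46). Myl1, the fast essential light chain, stood at 25826 and 21315 CPM (-0.28, -0.32 to -0.24). The 2 chains are held in equal number by fast myosin, and the order of their UMIs was Myl1 over Mylpf in QSC and Mylpf over Myl1 in ASC. Mylk2, the skeletal kinase of the regulatory chain, stood at 404 and 203 CPM (-0.99, -1.32 to -0.65).

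The slow and developmental light chains were rare in fibre barcodes of either library. Fibre barcodes were chosen by fast-fibre genes, so the choice favoured low levels of the slow chains. Barcodes richest in slow-fibre genes, described below, had a fast-fibre gene share of at most 2.93%, under the limit of 5%. Myl3, the slow essential chain, was lower in ASC, with 226 CPM in QSC (48 UMIs) and 46.0 CPM in ASC (132 UMIs), a log2 ratio of -2.29 (-2.78 to -1.79). Over the whole QSC library Myl3 was concentrated: the 10 barcodes with most Myl3 held 80.4% of its 56 UMIs, and a single barcode held 24. Without the richest fibre barcode of each library, Myl3 stood at 118 and 37.3 CPM (-1.67, -2.31 to -0.96). Myl2, the slow regulatory chain, had 0 UMIs in QSC and 105 in ASC (36.6 CPM), at least 2.59-fold higher when the QSC count is set to 3. The exact interval of the Myl2 ratio began at 1.05 on the log2 scale, and at 0.39 without the barcode that held 38 of the 105 UMIs. Myl4, the embryonic and atrial essential chain, stood at 23.5 and 23.7 CPM (5 and 68 UMIs, -1.28 to 1.68), and Myl10, another regulatory chain, had 0 and 37 UMIs, at least 1.09-fold higher by the same count of 3. The exact interval of the Myl10 ratio reached down to -0.50 on the log2 scale and includes no difference. The slow-fibre marker genes Tnnt1, Tnnc1, Tnni1 and Myh7 had 2 UMIs together in the QSC fibre barcodes and 141 in ASC, with Myh7 at 0 in both.

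**Figure D2:**
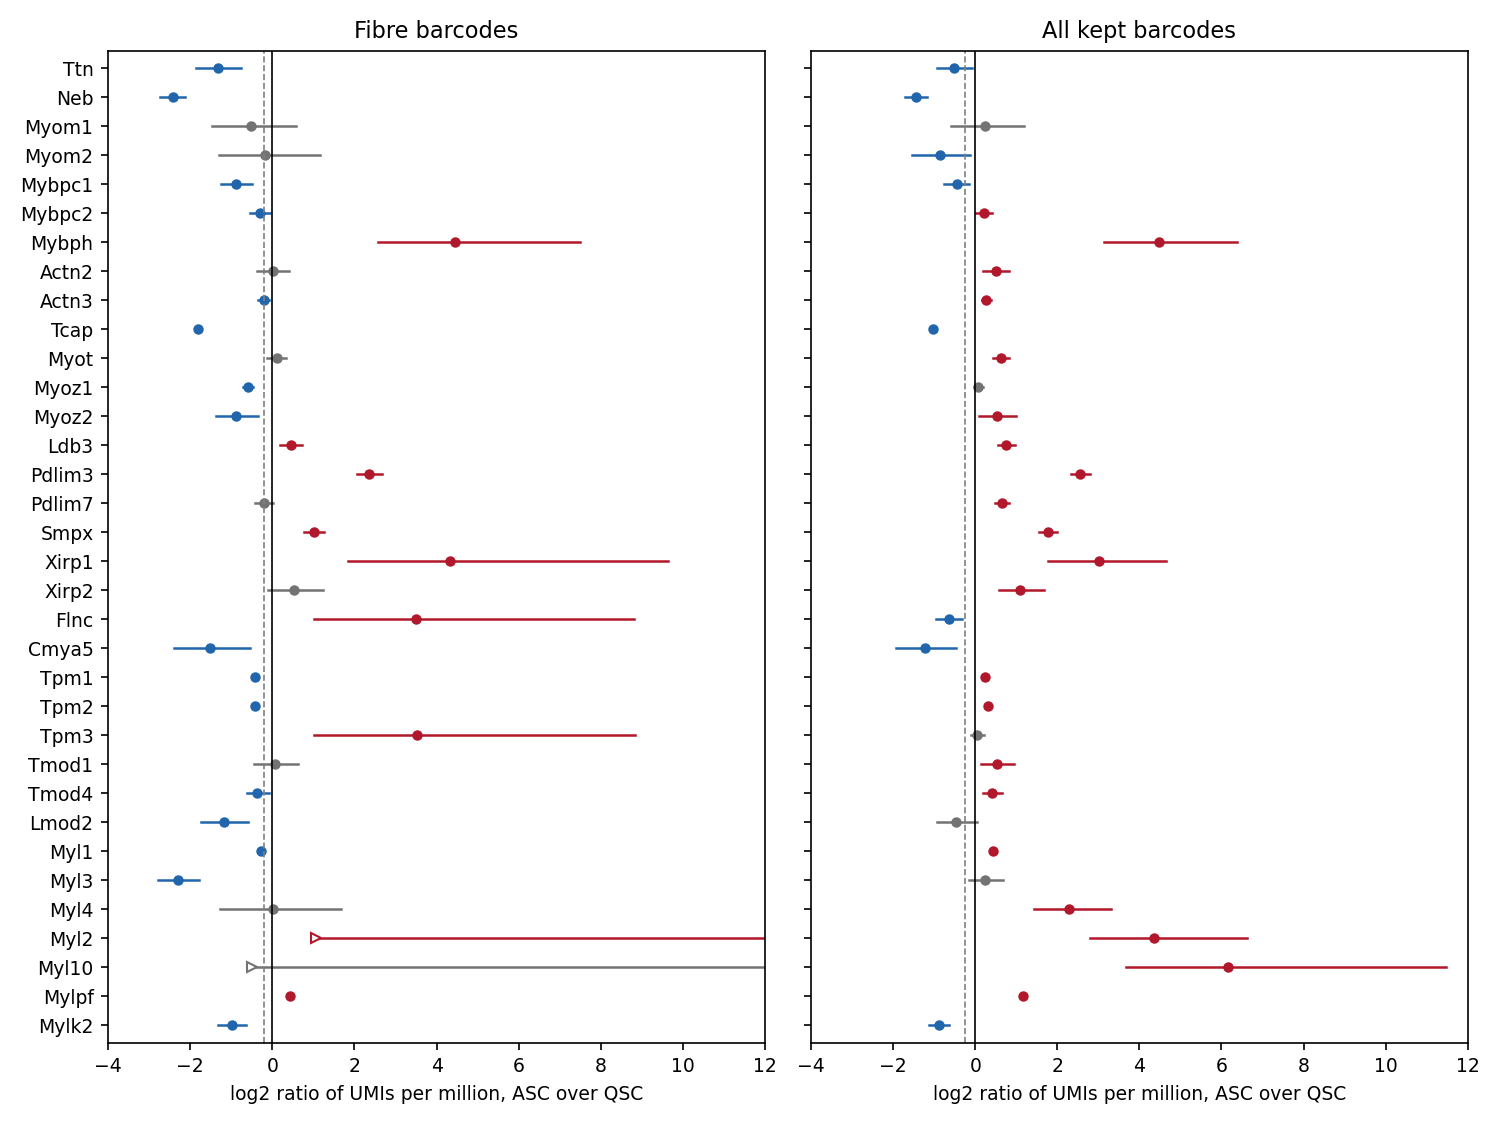
Log2 ratio of ASC over QSC for each of the 34 genes in fibre barcodes (left) and in all kept barcodes (right), with exact 95% intervals for counting error; red and blue mark intervals above and below 0, open triangles the lower end of the interval where QSC had 0 UMIs, and the dashed line the median of genes with at least 20 UMIs in each library (-0.19 and -0.25). Mybph, Xirp1 and Pdlim3 lie far to the right and Neb and Tcap to the left in both panels, whereas Tpm1, Tpm2 and Myl1 lie left of 0 in fibre barcodes and right of it in all barcodes.

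For 8 members the direction differed between the pooled and the fibre comparison with both intervals clear of no difference. Mybpc2, Actn3, Myoz2, Tpm1, Tpm2, Myl1 and Tmod4 were lower in the fibre barcodes of ASC and higher in ASC over all barcodes, and Flnc the reverse. No share over all genes was set beside this count. For Myoz2 the difference rested on few barcodes. Without its richest barcode in each library the fibre interval ran from -1.14 to 0.045. Without the slow-rich barcodes described below, its pooled log2 ratio was 0.044. For Tpm1 the log2 ratio was -0.43 in fibre barcodes and 0.24 (0.21 to 0.27) over all barcodes, where its level was 6920 CPM in QSC and 8170 CPM in ASC. For Flnc it was 3.50 in fibre barcodes and -0.65 (-0.95 to -0.33) over all barcodes, where 107 QSC UMIs and 523 ASC UMIs gave 92.1 and 58.8 CPM. With at most 1% mitochondrial UMIs, 10 members turned direction over all barcodes, among them Tpm1 (-0.77) and Flnc (4.02), whereas in fibre barcodes no member whose interval excluded equality turned under the settings tried. Over all barcodes the interval lay above 1 for 21 members and below 1 for 8, against 18.6% and 27.2% of 13758 genes.

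For comparison, 32 genes outside the list were taken: other sarcomere genes and non-muscle relatives of members, such as Myl12b. In fibre barcodes the interval of the ratio lay above 1 for 9 of the 32 and below 1 for 3, against the 7.71% and 7.51% of all genes given above, and 20 could not be told from 1. Acta1 (log2 ratio -0.42, -0.45 to -0.40) and Myl12b, a non-muscle regulatory light chain with 3 and 6 UMIs (-2.75, -4.98 to -0.13), were among the lower. Csrp3, which encodes muscle LIM protein, a partner of Tcap at the Z-disc, stood at 475 CPM in QSC and 4075 CPM in ASC (log2 ratio 3.10, 2.82 to 3.40). Des, the gene for desmin, stood at 2560 and 4632 CPM (0.86, 0.73 to 0.98), and Trim54, a ubiquitin ligase of the sarcomere, at 240 and 480 CPM (1.001, 0.60 to 1.43).

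Csrp3 and Ankrd1, which are known to rise in muscle under stretch and injury, made up 0.0526% of the UMIs of QSC fibre barcodes and 0.612% of those of ASC fibre barcodes. ASC fibre barcodes thinned to 1200 UMIs were split into 649 with at least 1 UMI of either gene and 162 with none. The interval of the ratio of the former over the latter lay above 1 for 8 members, against 1.74% of 7080 genes, and below 1 for 7, against 2.98%. Xirp1 stood at 131 CPM (102 UMIs) with and 15.4 CPM (3 UMIs) without a stretch-response UMI, a log2 ratio of 3.09 (1.50 to 5.39). Myoz2 stood at 127 and 36.0 CPM (1.82, 0.72 to 3.17), Actn2 at 322 and 118 CPM (1.45, 0.83 to 2.13) and Mybph at 220 and 92.6 CPM (1.25, 0.54 to 2.03). Xirp1, Myoz2, Actn2 and Mybph were thus richer in the barcodes that held Csrp3 or Ankrd1. Pdlim3 was higher by less, at 2318 and 1590 CPM (0.54, 0.37 to 0.72), and Smpx, at 1428 and 1368 CPM (-0.13 to 0.26), was not told apart. Myl3 had 49 UMIs with and 1 UMI without (62.9 and 5.14 CPM, 3.61, 1.07 to 8.94), and Tpm2 stood at 6631 and 5926 CPM (0.16, 0.070 to 0.26). Lmod2 stood at 87.3 and 41.2 CPM (1.09, 0.026 to 2.35). Tcap, at 3278 and 3225 CPM (-0.10 to 0.15), and Neb, at 110 and 118 CPM (-0.78 to 0.63), were not told apart either. The 7 lower members included the fast forms Mybpc2 (log2 ratio -0.40), Actn3 (-0.18), Tpm1 (-0.23), Myl1 (-0.12) and Mylpf (-0.11), and Pdlim7 (-0.39). Tpm3 was the other, at 23 UMIs with and 33 without (-2.52), but 25 of the 33 lay in 1 barcode. With the barcode richest in each member left out, 7 members were higher and 6 lower, and the intervals of Tpm3 (-0.49, -1.70 to 0.88) and Lmod2 (0.93, -0.14 to 2.21) took in no difference. The share over all genes was not recomputed under this rule. All of these barcodes come from 1 library and are not replicates.

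**Figure D3:**
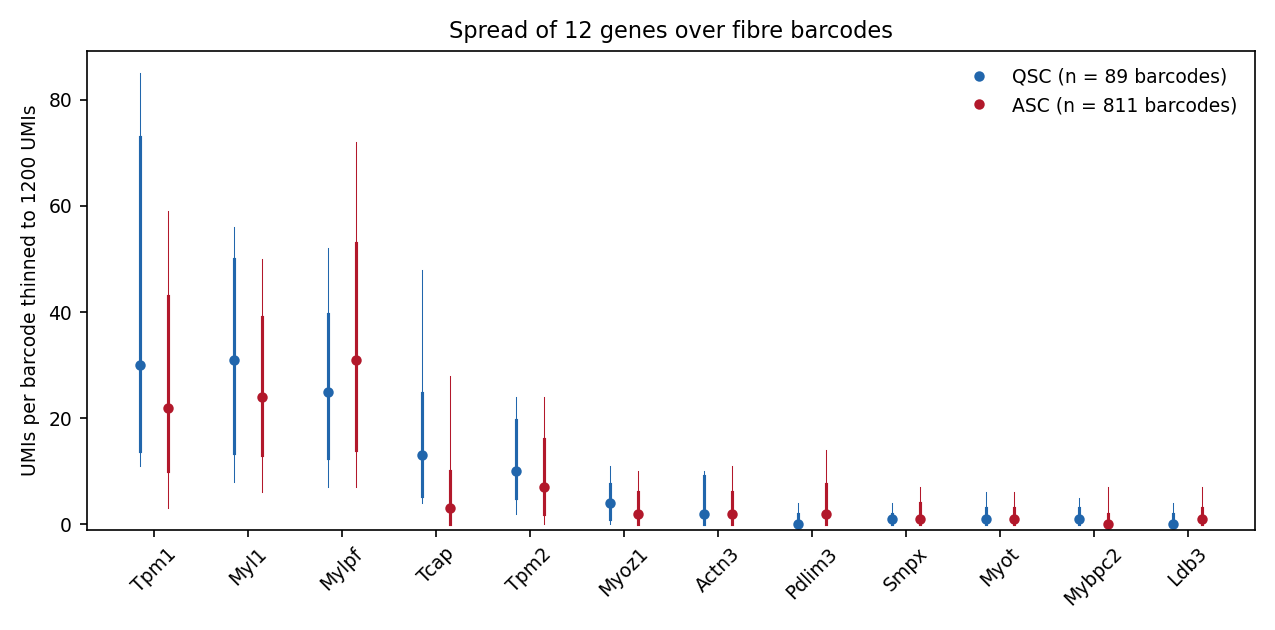
UMIs of 12 genes per fibre barcode after each barcode was thinned to 1200 UMIs, for 89 QSC barcodes (blue) and 811 ASC barcodes (red). Points are medians, thick lines run from the 5th to the 95th percentile and thin lines from the lowest to the highest barcode; the medians of Tcap are 13 and 3, and every gene overlaps between the libraries.

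For the abundant members the counts of fibre barcodes varied by more than their mean. In QSC the variance over the mean at 1200 UMIs was 9.001 for Tpm1, 4.05 for Myl1, 3.18 for Tcap and 2.997 for Actn3, where sampling of equal fibres would give about 1. Tpm1 ran from 11 to 85 UMIs per barcode in QSC and from 3 to 59 in ASC. In ASC the same quantity was 4.55 for Mylpf, 4.18 for Tpm1, 2.56 for Tcap and 2.38 for Pdlim3. Members near 1 in both libraries included Myom2 (0.95 and 1.06), Cmya5 (0.93 and 0.98) and Pdlim7 (1.12 and 1.11), all with under 2 UMIs per barcode on average.

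Outside fibre barcodes most members were found at a low level, and the abundant ones near their proportion to the fibre genes. This was measured as UMIs of a member per 1000 UMIs of the 10 fibre genes, divided by the same in fibre barcodes of the library, a quantity that stays at 1 where all the RNA has 1 source. The median ratio over the members was 1.17 in the Myog-low barcodes of QSC (quartiles 0.83 and 1.70). In ASC, without 14 slow-rich barcodes that are described below, it was 0.89 in Myog-low barcodes (0.64 and 1.31), 0.82 in Myog-high barcodes (0.62 and 1.46) and 0.81 in non-muscle barcodes (0.59 and 1.12). The fibre genes themselves made up 1.05% of the UMIs of Myog-low barcodes and 1.21% of those of non-muscle barcodes in QSC. Mylpf, for example, stood at 1562 CPM in the Myog-low barcodes of QSC (ratio 0.83, 0.78 to 0.88) and 3668 CPM in those of ASC (0.997, 0.98 to 1.02), and at 4835 CPM in the non-muscle barcodes of ASC (1.01, 0.97 to 1.05). The non-muscle barcodes of ASC, which should lack Mylpf, thus held as much of it per fibre-gene UMI as fibre barcodes did. For Tpm1, Tpm2, Myl1, Myoz1 and Tcap the Myog-low ratios lay between 0.79 and 1.46 in both libraries.

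Among members with UMIs in fibre barcodes, Tpm3 and Flnc departed most from this proportion in Myog-low barcodes. Tpm3 had 334 UMIs in the Myog-low barcodes of QSC (396 CPM, 354 to 440) against 1 UMI in QSC fibre barcodes, and its ratio to the fibre class was 911 (162 to 36074). In ASC it stood at 280 CPM in Myog-low barcodes (261 to 300) and 213 CPM in Myog-high barcodes (195 to 231), with ratios of 38.6 (32.4 to 46.1) and 31.55 (26.3 to 38.0), which are set against fibre barcodes of which 1 held 60 of the 155 UMIs. Tpm3 was higher still in the non-muscle barcodes of ASC, at 607 CPM (547 to 672, ratio 64.1, 53.0 to 77.9), and stood at 197 CPM (118 to 307) in those of QSC. Tpm3 UMIs were thus found in every class of barcode, least in fibre barcodes, which were chosen by fast-fibre genes. Thinned to 1200 UMIs, 33.6% of 366 Myog-low barcodes in QSC (28.8 to 38.7) and none of 89 fibre barcodes had a Tpm3 UMI. A count of 0 allows a share of up to 3.37% by the limit of 3 counts, and the exact interval ends at 4.06%. Before thinning, 0.971% of the QSC fibre barcodes had one. In all kept barcodes the level of Tpm3 was 308 CPM in QSC and 318 CPM in ASC (log2 ratio 0.05, -0.11 to 0.21).

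Flnc exceeded the proportion in the muscle lineage. It stood at 121 CPM in the Myog-low barcodes of QSC (98.5 to 147, ratio 278, 48.8 to 11090), and in ASC at 60.1 CPM in Myog-low (ratio 8.38, 6.69 to 10.5) and 77.9 CPM in Myog-high barcodes (ratio 11.7, 9.44 to 14.6). In non-muscle barcodes it had 3 UMIs in QSC (31.1 CPM, ratio 62.0, 4.98 to 3257) and 5 UMIs in ASC (8.16 CPM, ratio 0.87, 0.28 to 2.08). In ASC, Flnc was thus above the fibre proportion in myogenic barcodes and not told from it in non-muscle barcodes. Pdlim7 lay above the proportion in myogenic barcodes by less and in the non-muscle barcodes of ASC too, with ratios of 1.45 (1.13 to 1.84) in QSC Myog-low barcodes, 1.81 (1.65 to 1.98) in ASC Myog-low barcodes and 2.76 (2.54 to 3.01) in ASC Myog-high barcodes, and 1.39 (1.15 to 1.67) in ASC non-muscle barcodes. Myl4 and Myl10, too, had ratios above 1 in Myog-high barcodes of ASC, at 9.65 (6.82 to 13.7) and 4.998 (2.75 to 8.84), but the Myl10 ratio was 9.39 (4.58 to 18.1) in non-muscle barcodes. Ttn had a ratio of 3.44 (2.56 to 4.56) in Myog-high barcodes of ASC and 0.88 (0.32 to 1.94) in non-muscle barcodes. In the Myog-low barcodes of QSC, Ldb3 lay above the proportion (1.55, 1.14 to 2.09) and Myot was not told from it (0.82, 0.59 to 1.14). Pdlim3 and Mylk2, above it in QSC, lay below it in ASC Myog-low barcodes, at 0.60 (0.54 to 0.66) and 0.66 (0.49 to 0.88). Myot and Ldb3 lay below the proportion in all 3 of these ASC classes. The ratio of Myot was 0.38 (0.32 to 0.46) in Myog-low, 0.33 (0.26 to 0.41) in Myog-high and 0.43 (0.30 to 0.59) in non-muscle barcodes, and that of Ldb3 was 0.54 (0.46 to 0.64), 0.48 (0.39 to 0.57) and 0.33 (0.22 to 0.48). In the Myog-low barcodes of ASC the interval lay above 1 for 8 members and below 1 for 16. The counts were 11 and 14 in the Myog-high and 5 and 12 in the non-muscle barcodes of ASC. In the Myog-low barcodes of QSC they were 10 and 7. No share over all genes was computed beside the counts of this measure.

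**Figure D4:**
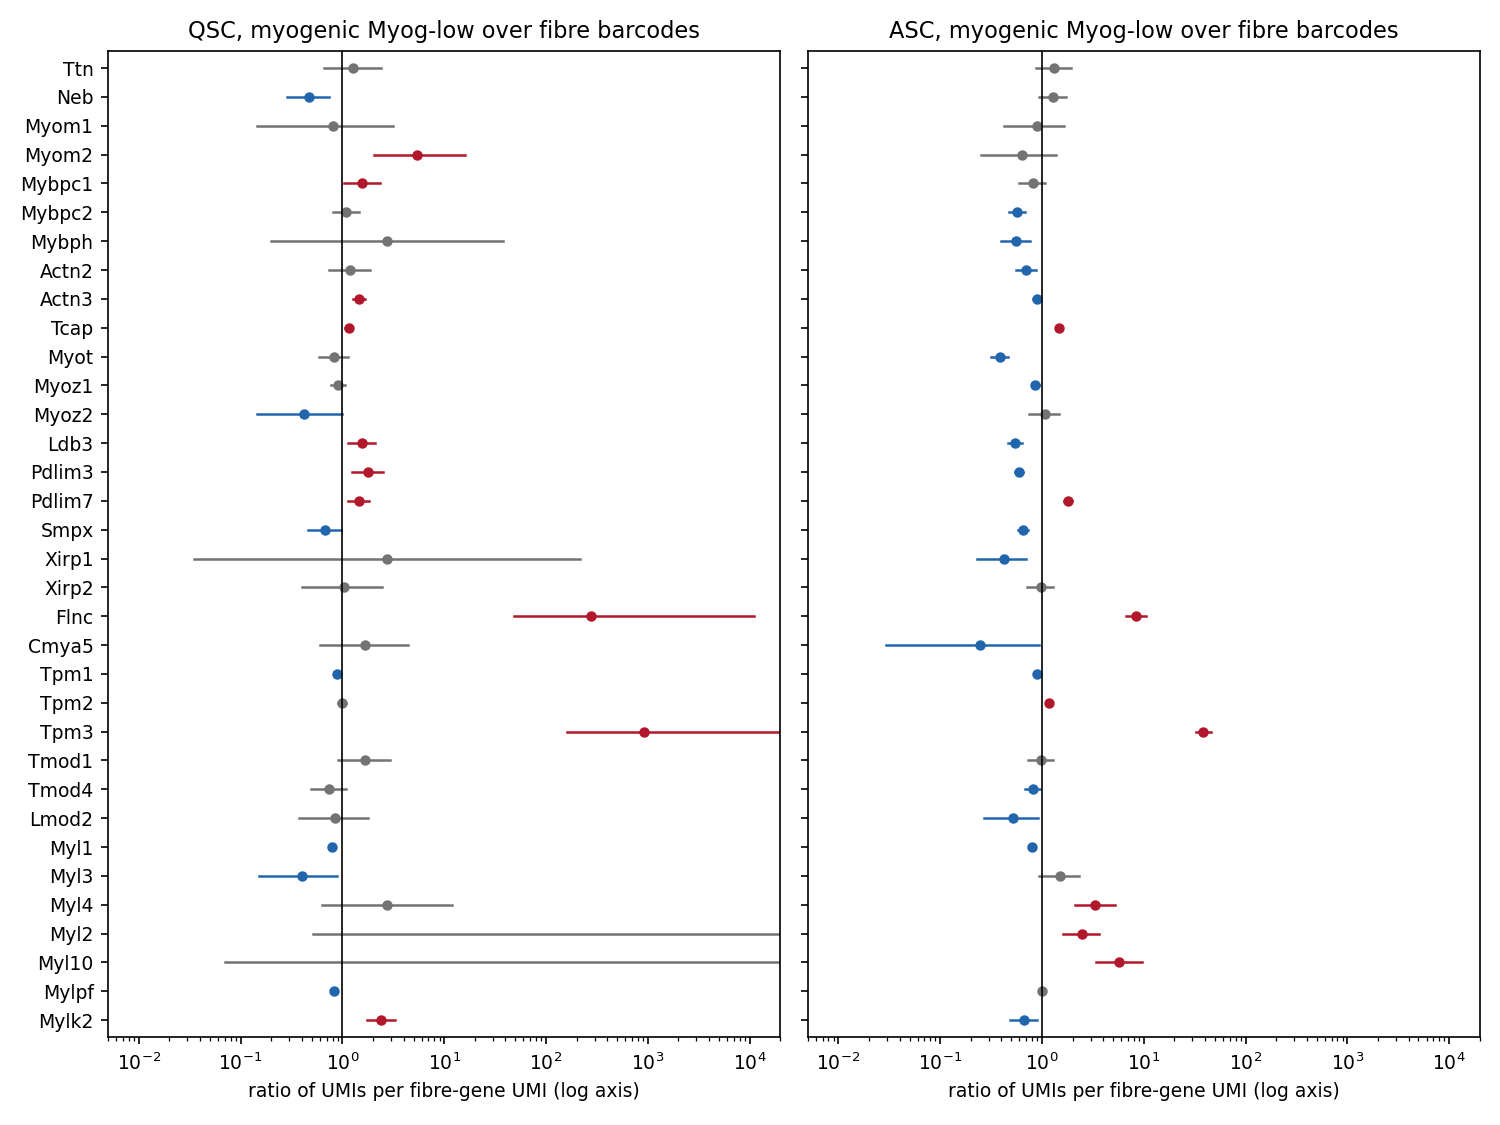
Ratio of UMIs per fibre-gene UMI in myogenic Myog-low barcodes over that in fibre barcodes, for QSC (left, 370 barcodes) and ASC (right, 282 barcodes, slow-rich ones left out), on a log axis with exact 95% intervals for counting error; red and blue mark intervals above and below 1. Tpm3 and Flnc lie far to the right in both panels, while the abundant genes Tpm1, Tpm2, Myl1 and Mylpf lie near 1.

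Within the myogenic barcodes of ASC, 145 Myog-high barcodes were compared with 282 Myog-low barcodes, slow-rich barcodes left out. With those included, median depth was 13133.5 UMIs in Myog-high and 5646 UMIs in Myog-low barcodes. The split used Myog UMIs without thinning, and what part depth had in the ratios was not tested. The interval of the ratio lay above 1 for 4 members, against 10.4% of 11825 genes, and below 1 for 8, against 7.90%. Of the 10 fibre genes it lay above 1 for 1 and below 1 for 5, with Atp2a1 the higher gene. The 4 higher members were Myl4, at 28.5 CPM in Myog-high and 10.7 CPM in Myog-low barcodes (log2 ratio 1.42, 0.78 to 2.09), Ttn, at 27.3 and 11.4 CPM (1.26, 0.64 to 1.92), Pdlim7, at 279 and 197 CPM (0.50, 0.34 to 0.67), and Flnc, at 77.9 and 60.1 CPM (0.38, 0.07 to 0.68). The 8 lower members were Tpm3, at 213 and 280 CPM (-0.40, -0.56 to -0.24), Mybpc2, at 34.95 and 47.98 CPM (-0.46, -0.86 to -0.058), Myoz2, at 8.03 and 14.2 CPM (-0.82, -1.68 to -0.015), Myoz1, at 199 and 235 CPM (-0.24), Myl1 (-0.22), Tpm1 (-0.19), Mylpf (-0.17) and Tcap (-0.15). Among genes outside the list, the embryonic forms Actc1, at 456 and 17.1 CPM (4.74, 4.32 to 5.19), and Tnnt2, at 76.3 and 24.2 CPM (1.66, 1.25 to 2.08), stood much higher in Myog-high barcodes. Neb, at 21.3 and 19.2 CPM (-0.42 to 0.72), was not told apart.

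In 14 ASC barcodes the slow-fibre genes Myh7, Tnnt1, Tnnc1 and Tnni1 gave 1% or more of the UMIs, and these are called slow-rich. This limit was chosen after the values were seen: the share was 1.29 to 4.53% inside the set, at most 0.54% in the other ASC barcodes and at most 0.13% in any QSC barcode. By the classes above, 5 were Myog-high, 3 Myog-low and 6 unassigned, and their fast-fibre gene share was 1.49 to 2.93%. They held 281 of the 468 Myl2 UMIs of the ASC library (60.0%), 317 of 507 Myl3 UMIs (62.5%), 235 of 411 Myl4 UMIs (57.2%), 451 of 549 Myl10 UMIs (82.2%), 986 of 2833 Tpm3 UMIs (34.8%) and 146 of 510 Myoz2 UMIs (28.6%). Pooled values of these 6 genes in ASC therefore rest in part on few barcodes. Without the 14, the log2 ratio of ASC over QSC in all barcodes (0.5 added to each count) was -1.17 for Myl3, -0.56 for Tpm3, 0.044 for Myoz2, 1.01 for Myl4, 3.11 for Myl10 and 2.82 for Myl2. Myl3 and Tpm3 thus turned below equality at the point estimate.

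Compared with fibre barcodes, slow light chains and tropomyosin were high in the slow-rich barcodes and their fast forms low. Both sets were chosen by fibre-type genes, the slow-rich barcodes by slow genes and the fibre barcodes by fast genes. The choice thus favoured differences in these directions, and the values below only describe them. Compared with the ASC fibre barcodes the interval lay above 1 for 10 members, against 4.52% of 9803 genes, and below 1 for 14, against 2.22%. Tpm3 stood at 16507 CPM in slow-rich and 54.0 CPM in fibre barcodes (306-fold, log2 ratio 8.26, 8.01 to 8.51). Of the light chains, Myl10 stood at 7551 against 12.9 CPM (586-fold), Myl3 at 5307 against 46.0 CPM (115-fold), Myl2 at 4704 against 36.6 CPM (129-fold) and Myl4 at 3934 against 23.7 CPM (166-fold). Myoz2 stood at 2444 against 99.6 CPM (24.5-fold). Tcap (2.49-fold), Smpx (2.46-fold), Lmod2 (3.54-fold) and Actn2 (1.83-fold) were higher too. Mylpf stood at 4303 against 27340 CPM (6.35-fold lower), Tpm1 at 2411 against 20311 CPM (8.42-fold lower), Pdlim3 at 402 against 2121 CPM (5.28-fold lower) and Tmod4 at 33.5 against 460 CPM (2 UMIs, log2 ratio -3.78, -6.83 to -1.93). Myl1 was closest among the fast chains, at 12556 against 21315 CPM (1.70-fold lower). In the non-muscle barcodes of ASC, which should lack Mylpf and Myl1, Mylpf stood at 4835 CPM, Tpm1 at 2869 CPM and Myl1 at 2941 CPM. Mylpf and Tpm1 in slow-rich barcodes did not exceed that level, whereas Myl1 did.

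Within the 14 barcodes, Myl4 and Myl10 UMIs were both present in 11 and both absent from 3. In the 11, Myl4 stood at 4423 CPM, Myl10 at 8488 CPM and Tpm3 at 17597 CPM, with Tnnt2, the embryonic troponin T, at 2842 CPM. In the other 3, with 6597 UMIs in all, Myl2 stood at 12430 CPM (82 UMIs), Myl3 at 8943 CPM (59 UMIs), Myoz2 at 6821 CPM (45 UMIs) and Myl1 at 3638 CPM (24 UMIs), with Tnnt2 and Myog at 0 UMIs. Both sets held the adult slow light chains Myl2 and Myl3, at 3745 and 4856 CPM in the 11. Mylpf stood at 4216 CPM in the 11 and 5002 CPM in the 3. Pax7, the satellite cell factor, was at 0 in all 14. No QSC barcode was slow-rich, and the 3 Myl2 UMIs of QSC lay in 3 barcodes.

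**Figure D5:**
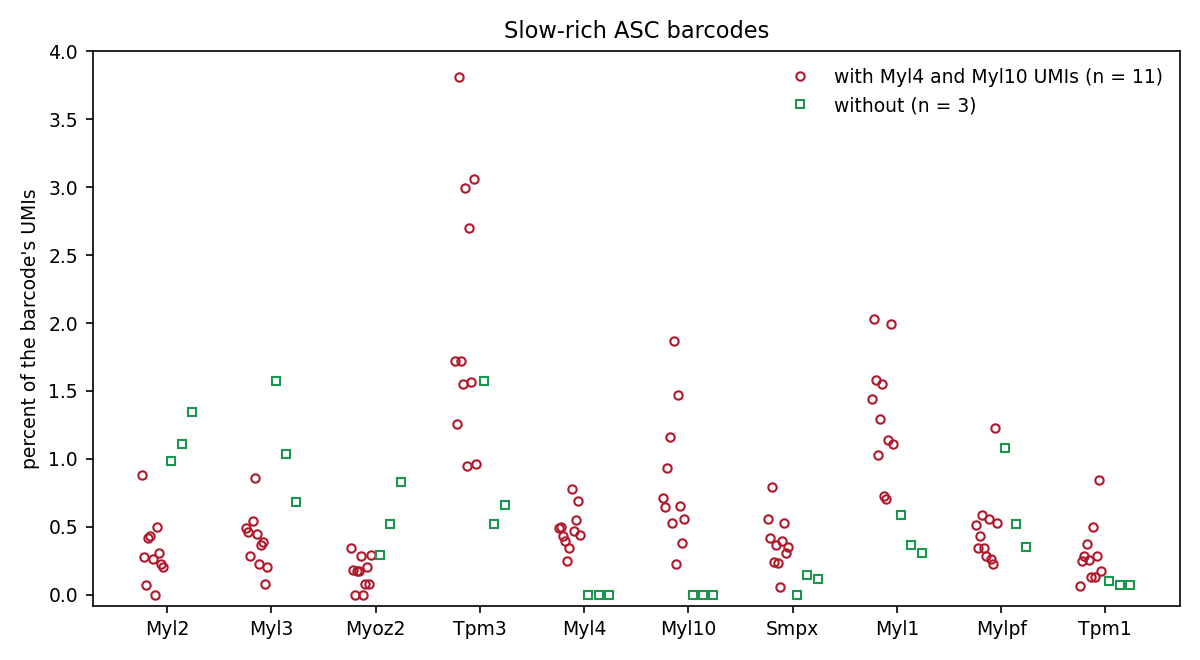
Share of the UMIs of each of the 14 slow-rich ASC barcodes that came from 10 members, as percent of the barcode; circles are the 11 barcodes with Myl4 and Myl10 UMIs and squares the 3 without, spaced sideways for clarity. The 3 squares lie above most circles for Myl2, Myl3 and Myoz2 and at 0 for Myl4 and Myl10.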

How the data were processed

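Cells sorted from digested muscle were run on the 10x Genomics 3′ platform (v2), 1 library per group, and sequenced on a NovaSeq instrument. The authors deposited, for each library, a filtered matrix of UMI counts per gene and barcode, not normalized. The submitters' processing notes name Cell Ranger 7.1.0, Seurat 4.1.0, R 4.1.2 and the mm10 build, while the file header names Cell Ranger 6.0.2, and how strand was handled in counting is not given in the sources used here. The deposited matrices held 766 QSC and 1650 ASC barcodes. The study's limit of 1% mitochondrial transcripts would keep 86 and 948 of them, and 10% was used here.

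Counts were summed over barcodes with Python 3.11.15, NumPy 2.4.6, SciPy 1.17.1 and pandas 2.3.3. Levels have exact Poisson intervals, ratios exact conditional binomial intervals and shares Clopper-Pearson intervals, all at 95%, and the interval code was tested on simulated data. A gene entered a comparison with more than 3 UMIs in either group, and the fold count added 0.5 to each UMI count. Non-muscle barcodes had at least 3 UMIs of 18 immune, stromal and endothelial markers and more of these than of myogenic markers. No doublet caller was run. The edgeR 4.0.16 package in R 4.3.3 gave TMM scaling only. All 34 members were described, by role. Members and lists were chosen with earlier results of these data known, and the slow-rich limit of 1% was chosen after seeing the data.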

Additional observations from a re-analysis of the deposited data

How the results depend on the processing

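In fibre barcodes no member whose interval excluded equality changed direction under the alternatives, while Actn2, Myl4, Tmod1 and other members near 0 changed sign under some. With each member's richest barcode left out of each library, added after seeing the data, the interval lay above 1 for 10 members and below 1 for 15, with Xirp2 gained and Myoz2 lost. The share over all genes was not recomputed under this rule. Actn2 moved above its interval with at most 1% mitochondrial UMIs and with the fibre limit at 10%. The 2-fold counts there moved by over 1.5 times only where members needed at least 20 UMIs in each library. That left 2 of 24 members higher, against 6.79% of 1207 genes. The share of UMIs from the members there was 11.1% in QSC with at most 1% mitochondrial UMIs, 10.95% and 9.17% in QSC and ASC with at least 200 detected genes, 14.9% and 12.05% when scaled to UMIs outside contractile genes, 10.4% and 8.51% with the fibre limit at 2%, 12.2% and 11.1% with it at 10%, and 8.80% in ASC with equal weight per barcode.

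Over all barcodes the results depended on the barcodes kept. With at most 1% mitochondrial UMIs the median log2 ratio was -0.26, 6 members were at least 2-fold lower, and the shares were 10.8% in QSC and 7.78% in ASC. Log2 ratios turned to -0.73 for Mybpc2, -0.59 for Actn3, -0.18 for Myot, -0.44 for Pdlim7, -0.77 for Tpm1, -0.58 for Tpm2, -0.58 for Myl1, -0.34 for Tmod1, -0.69 for Tmod4 and 4.02 for Flnc. With at most 5% the median was 0.056, the QSC share 3.52%, and Mybpc2, Tpm1 and Tpm2 turned to -0.088, -0.12 and -0.030. With at least 200 detected genes the median was 0.074, 5 members were lower, the shares were 3.71% and 3.85%, and Mybpc2, Actn3, Tpm1, Tpm2 and Myl1 turned to -0.24, -0.086, -0.21, -0.067 and -0.017. Scaling outside contractile genes gave shares of 3.001% and 4.25%. TMM scaling gave a median of 0.67 and 1 lower member. Without the top 5% of barcodes by UMIs the median was 0.82, 1 member was lower and the shares were 2.67% and 4.79%. With equal weight per barcode the median was 0.96, 17 members were higher and 0 lower, the shares were 2.96% and 5.99%, and Ttn and Mybpc1 turned to 0.011 and 0.081. Of 28 members with at least 20 UMIs in each library, 4 were at least 2-fold higher, against 8.25% of 5730 genes. For the other settings here, no share or median over all genes was set beside the members. Without the slow-rich barcodes, an alternative added after seeing the data, the ASC share was 3.80%. Outside fibres, Tcap per fibre-gene UMI in QSC Myog-low barcodes turned to -0.0085 (log2) when Ckm, Pvalb and Pygm alone were the reference. Where a setting changed a value, the cause was not tested beyond which barcodes or genes it kept. No alternative without the mitochondrial limit, or without barcode sequences present in both libraries, moved a member beyond its interval.

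No paired analysis was possible because each group has 1 library. Intervals cover counting error and not variation between mice or sorts. Genes with a handful of UMIs in the QSC fibre barcodes (Mybph, Xirp1, Flnc, Tpm3, Myl2 and Myl10) have ratios of wide interval, and 103 fibre barcodes limit them. Cells, fragments of fibres and droplets with free RNA cannot be told apart among fibre barcodes, and 3′ counting does not resolve the muscle and cytoskeletal isoforms of Tpm3.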
